A study of Danio rerio with 3 samples.

Results

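The nuclear genes of oxidative phosphorylation were followed by respiratory complex in single macrophages from zebrafish embryos with mutant ptpn6 and from their siblings. Members were chosen by gene symbol alone: ndufa, ndufb, ndufc, ndufs and ndufv genes without the ndufaf assembly factors for complex I, sdha to sdhd for complex II, uqcr genes for complex III, cox4 to cox8 genes for complex IV, and atp5 genes without atp5s for complex V. This gave 81 of 21915 gene IDs, of which 36 belong to complex I, 5 to complex II, 7 to complex III, 14 to complex IV and 19 to complex V. No ID carried an ndufc symbol, and 17027 of the IDs carried any symbol. At least 1 transcript of each of the 81 was counted.

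The study asked what Shp1, the protein tyrosine phosphatase encoded by ptpn6, does in early blood development. Whole embryos at 5 days post fertilization were dissociated, and mpeg-positive macrophages were sorted singly into 384-well plates for CEL-Seq2. On sort day 1 a shared plate held ptpn6 siblings in rows A to H and ptpn6 mutants in rows I to P; on sort day 2 siblings and mutants each had a plate of their own. The labels give neither the allele, nor the genotypes within the siblings, nor the number of embryos, so the 4 pools of wells may be technical rather than biological replicates. On sort day 2 genotype and plate cannot be told apart, and sort day and plate cannot be told apart in either genotype.

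Oxidative phosphorylation takes place at the inner mitochondrial membrane. Complexes I and II pass electrons from NADH and succinate to coenzyme Q, complex III passes them on to cytochrome c, complex IV hands them to oxygen, and complex V, the ATP synthase, uses the proton gradient built by complexes I, III and IV to make ATP. Most subunits are encoded in the nucleus and imported, whereas a small core of complexes I, III, IV and V is encoded by the mitochondrial genome; complex II is wholly nuclear. In macrophages the balance between respiration and glycolysis is known to shift with the state of activation.

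Wells with at least 1000 gene UMIs (unique molecular identifiers, each marking a counted transcript) were kept, which left 131 sibling and 138 mutant wells of day 1 and 199 sibling and 125 mutant wells of day 2. They held between 1121213 and 2185636 UMIs per pool, with median depths of 6890 to 9964 UMIs per well. Transcripts of ptpn6 (ENSDARG00000089043) were rare, with 11 UMIs (siblings) against 5 (mutants) on day 1 and 3 against 0 on day 2. The 20 IDs of a macrophage list held 3988 and 4923 UMIs in siblings and mutants of day 1 and 8290 and 5931 in those of day 2. Levels within that list were uneven. An actin regulator of leukocytes in general, coro1a, held between 667 and 1169 UMIs. In the same order of pools csf1rb held 76, 50, 21 and 11, and c1qc 0, 1, 0 and 1. No ID matched mpeg1.1 or mpeg1.2 by symbol. Muscle markers took 1.60% of the UMIs in mutants of day 1 against 0.239% in siblings of that day, and 0.0626% and 0.0329% in siblings and mutants of day 2. Wells are not replicates, so all tests compare pools, with n = 2 pools per genotype or per sort day, a design in which an exact test of a single value cannot give a p below 0.333.

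Together the 81 genes took 0.891% of the UMIs in siblings of day 1, 0.920% in mutants of day 1, 0.936% in siblings of day 2 and 1.34% in mutants of day 2. As CPM (UMIs of the genes per 1000000 UMIs of the pool) these were 8914, 9203, 9356 and 13390. The mutants of day 2 stood above the other 3 pools, which lay close together. Mutant over sibling, the summed level differed by a log2 ratio of 0.05 on day 1 (95% interval 0.01 to 0.08, from counting error alone) and of 0.52 on day 2 (0.49 to 0.55), which is 1.43-fold (1.40 to 1.46). Each ratio compares 1 pool with 1 pool and has no replicate check. After TMM scaling, which sets the bulk of genes equal between pools, the ratios were -0.04 and 0.28. The median of all genes tested lay at 0.07 on day 1 and 0.23 on day 2 before that scaling and at -0.01 and 0.00 after it. No kept well was without UMIs of the members. A larger share of UMIs in a pool can come from more RNA of these genes in each cell or from more cells with a high level of them. The sums do not tell these apart.

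Markers of other cell types also differed between the pools of day 2. The 5 neutrophil IDs summed to 342.5 and 450.8 CPM in siblings and mutants of day 1 and to 563.7 and 1481 in those of day 2. In that list lyz, a lysozyme gene, held 0, 0, 9 and 799 UMIs and mmp9, a matrix protease gene, 141, 135, 132 and 393, while cxcr1 held 0 in mutants of day 2. Of the others, npsn stood at 7.78 and 84.5 CPM in siblings and mutants of day 2, and mmp13a at 491 and 473. The 4 osteoclast IDs stood at 285.4, 597.9, 514.8 and 972 CPM, with ctsk, the cathepsin of bone resorption, at 52, 151, 64 and 671 UMIs and calcr at 0 in mutants of day 2. The difference of that sum on day 2 came almost wholly from ctsk, at 29.3 and 520 CPM in siblings and mutants. On that day ocstamp was lower in mutants (405 and 365) and acp5 differed little (78.7 and 86.8). The 9 lymphoid IDs stood at 750.1, 635.6, 274.1 and 658.9 CPM, mostly from ccr9, with rag1, cd4-1 and cd8a at 0 in mutants of day 2, and the 5 precursor IDs at 323.8, 126.6, 216.9 and 372.1. Among genes tested with TMM scaling, 2 of 3 neutrophil, 1 of 3 osteoclast, 3 of 3 lymphoid and 3 of 3 precursor markers were higher in mutants of day 2. Lower in mutants of day 2 were the sums of neural markers, at 0.112 of the sibling level, of mesenchyme (0.406), muscle (0.525) and epidermis (0.608). Of their genes tested with TMM scaling, 0 of 4, 0 of 5, 1 of 11 and 1 of 6 were higher in mutants of that day. In the epidermis list icn stood at 138 and 227 CPM in siblings and mutants of day 2, and krt4 at 193 and 14. The sum of macrophage markers stood at 1.21 times the sibling level, but its genes were divided. With TMM scaling 8 of the 17 tested were higher in mutants of day 2, with a median log2 ratio of -0.22. In siblings and mutants of day 2 cd74a stood at 172 and 1210 CPM, and mfap4 (ENSDARG00000088745) at 699 and 193. The part of these markers in the members' ratio of day 2 was not tested.

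All 5 complexes had their highest level in the mutants of day 2. Complex I, the NADH dehydrogenase, summed to 1774 and 1851 CPM in siblings and mutants of day 1 and to 1782 and 2847 in siblings and mutants of day 2. Complex II, the succinate dehydrogenase, stood at 182, 201.9, 235.2 and 333.3 in the same order, and complex III, the cytochrome c reductase, at 602.1, 626.4, 653.9 and 875.1. The terminal oxidase, complex IV, summed to 2214, 2348, 2269 and 3125, and the ATP synthase, complex V, to 4142, 4176, 4416 and 6207.

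The proportions between complexes changed little. Complex V held 45.4 to 47.2% of the members' UMIs in the 4 pools, complex IV 23.3 to 25.5%, complex I 19.1 to 21.3%, complex III 6.54 to 6.99% and complex II 2.04 to 2.51%. The share of complex I was highest, and that of complexes III and IV lowest, in the mutants of day 2. On day 2 the log2 ratio of mutant over sibling was 0.68 for complex I (0.61 to 0.74), 0.50 for complex II (0.31 to 0.69), 0.42 for complex III (0.31 to 0.53), 0.46 for complex IV (0.40 to 0.52) and 0.49 for complex V (0.45 to 0.53). With TMM scaling these became 0.44, 0.27, 0.19, 0.23 and 0.26. On day 1 the complexes lay between 0.01 for complex V and 0.15 for complex II; the intervals of complexes I, II, III and V reached below 0.

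**Figure D1:**
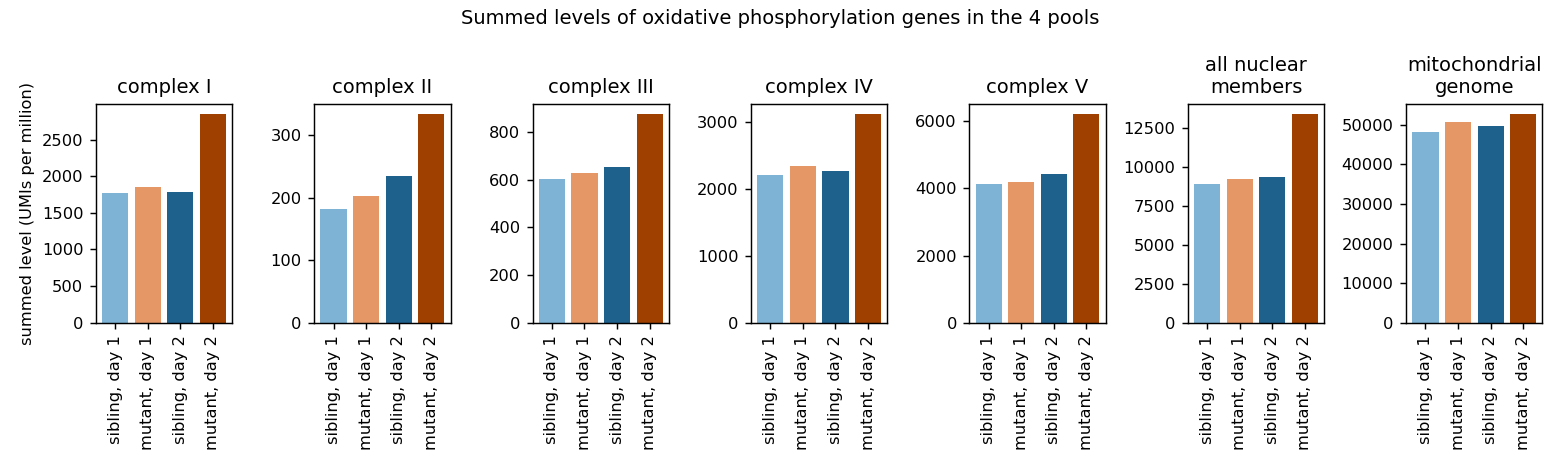
Bars give the summed level in CPM (linear axis from 0, each panel with its own range) for each complex, for all 81 nuclear members and for the 13 protein-coding genes of the mitochondrial genome, in the 4 pools; each bar is 1 pool, without an error bar. The mutants of day 2 are highest in every panel, by a wide margin in the nuclear sums (13390 against 9356 CPM in siblings of that day) and by a narrow one in the mitochondrial genome (52740 against 49780).

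In single genes, no member passed the test by genotype. Of the 81, 75 passed edgeR's filter on low counts, which looks at the counts of each group, and were tested among 8177 genes. By edgeR's quasi-likelihood test at an adjusted p under 0.05, 0 of the 75 were called, and the background was 0 of 8177 genes (0.0%). At an unadjusted p under 0.05, 0 members were higher and 0 lower in mutants, where 1.70% of all genes were higher and 1.61% lower. DESeq2 called 24 genes (0.294%) and 0 members, and edgeR with sort day as a block 2 genes (0.0245%) and 0 members. The median fitted log2 fold of the members, mutant over sibling, was 0.17, beside -0.01 over all genes tested, and 58 of the 75 lay above 0, beside 49.0% of all genes. Without the mutants of day 2 that direction was lost: the median was -0.08, beside -0.03 over all genes tested, with 30 of 75 above 0. It was 0.08 without siblings of day 1, 0.23 without siblings of day 2 and 0.39 without mutants of day 1. Over all genes tested these last fits had medians of 0.07, 0.03 and -0.06. Without siblings of day 1, too, the members thus lay close to all genes. With every well weighted equally the members' median was 0.07, with 43 of 74 above 0, beside -0.01 over all genes tested.

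The direction on each day is a description of these pools. With TMM scaling, 34 of the 75 members were higher in mutants on day 1, where 49.1% of all genes were, and 68 on day 2, where 49.9% were. On both days 30 were higher in mutants (23.3% of all genes) and 3 lower (24.3%). Both mutant pools lay above both sibling pools for 13 members, against 13.7% of all genes, and below them for 2, against 13.8%; the latter were uqcrb and uqcrc2a of complex III. For 61 of the 75 the mutants of day 2 held the highest scaled level of the 4 pools, where this held for 26.7% of all genes. Without scaling this count was 70, beside 37.0% of all genes, and 45 members were higher in mutants on day 1 (54.8% of all genes) and 71 on day 2 (62.0%).

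**Figure D2:**
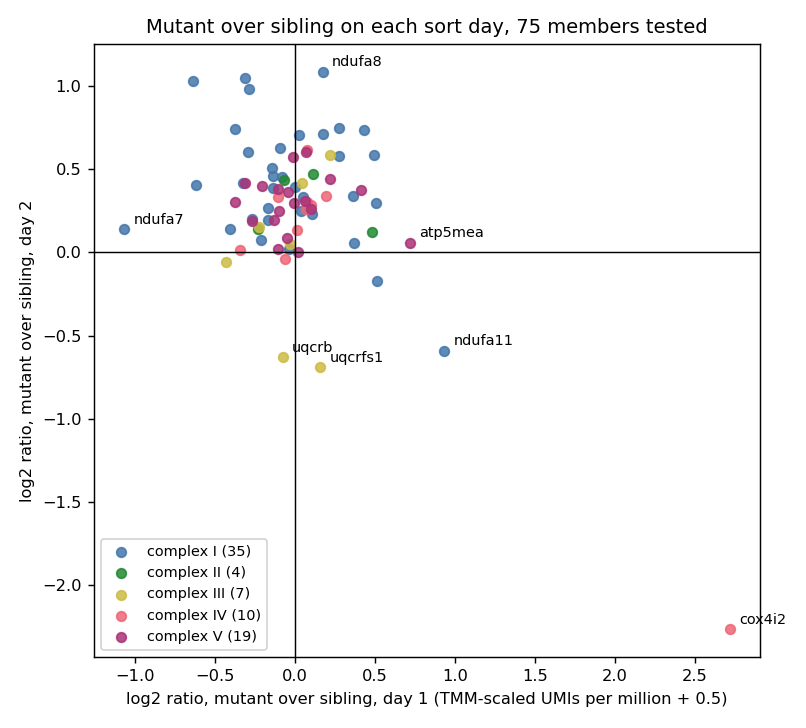
Each point is 1 of the 75 members tested, coloured by complex, with its log2 ratio of mutant over sibling on day 1 (horizontal) and on day 2 (vertical), from TMM-scaled CPM plus 0.5; there are no error bars. Points scatter on both sides of 0 on day 1 (34 above) and lie mostly above 0 on day 2 (68 above), with cox4i2 far to the lower right.

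Sort day gave no call either. By edgeR's quasi-likelihood test 0 of the 75 members were called between day 2 and day 1 at an adjusted p under 0.05, with 9 genes called in all (0.110%); with genotype as a block 15 genes (0.183%) and by DESeq2 32 (0.391%) were called, again with 0 members. At an unadjusted p under 0.05, 4 members were higher on day 2 and 0 lower, beside 3.56% and 6.73% of all genes. These were cox4i2, cox6b1, sdhb and ndufa1, with edgeR adjusted p of 0.378 to 0.466. Both pools of day 2 lay above both pools of day 1 for 31 members, where 19.2% of all genes did, and below them for 4, where 22.7% did. The median fitted log2 fold was 0.30, beside 0.01 over all genes tested, and 63 of the 75 lay above 0, beside 50.5% of all genes. Without mutants of day 2 the median was 0.15, with 52 above 0, and without siblings of day 2 it was 0.47. Over all genes tested each of these fits had a median of -0.05. In siblings alone the members' summed level differed between the days by a log2 ratio of 0.07 (0.04 to 0.10) and in mutants by 0.54 (0.51 to 0.57).

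Complex I has the most members. Over the 35 tested, mean levels ran from 5.93 to 132 CPM with a median of 54.1, and the 3 highest made up 17.4% of the complex. CEL-Seq2 counts the 3′ end of each molecule, so levels of different genes compare numbers of transcripts without a correction for length. The highest was ndufb9, an accessory subunit of the membrane arm, with 99.9 and 128 CPM in siblings and mutants of day 1 and 109.4 and 192.2 in siblings and mutants of day 2. Mutants were higher on both days, with a fitted log2 fold of 0.44 ± 0.35 (SE; edgeR adjusted p = 1.0). Next was ndufa1, a small membrane subunit needed for assembly, at 86.5, 93.9, 124.5 and 174.4. Both pools of day 2 lay above both of day 1, with a log2 fold of 0.68 ± 0.28 between days (edgeR adjusted p = 0.466). The NADH-binding subunit ndufv1 stood at 91.9, 77.5, 100.7 and 158.1, lower in mutants on day 1 and higher on day 2.

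Among complex I members that kept their direction on both days, ndufa8 had the largest genotype fold. This accessory subunit of the intermembrane space face stood at 33.9, 40.5, 31.1 and 78.3 CPM, in the same order of pools. Its fitted log2 fold was 0.69 ± 0.42 (edgeR adjusted p = 1.0), with ratios of 0.26 on day 1 and 1.33 on day 2. The membrane-arm subunit ndufb5 followed at 39.2, 56.2, 36.6 and 72.1, a log2 fold of 0.59 ± 0.37 (edgeR adjusted p = 1.0). For both genes the mutant pools lay above the sibling pools, as they did for 8 of the 35 complex I members, beside 13.7% of all genes. The iron-sulfur subunit ndufs8 was named for its difference between days and stood at 83.8, 66.8, 102.5 and 133.3, a log2 fold of 0.60 ± 0.30 (edgeR adjusted p = 0.532).

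Over the whole complex, the log2 ratio of mutant over sibling ran from -1.02 (ndufa7) to 1.03 (ndufa11) on day 1 and from -0.37 (ndufa11) to 1.33 (ndufa8) on day 2. With TMM scaling 33 of the 35 were higher in mutants on day 2 and 15 on day 1. The gene ndufa11, a membrane subunit, was among the exceptions of day 2: it stood at 20.5, 42.0, 38.0 and 29.5 CPM, so that mutants were higher on day 1 and lower on day 2. Of the acyl carrier protein genes, which serve mitochondrial fatty acid synthesis as well as complex I, ndufab1b stood at 45.5, 58.3, 40.3 and 79.8 and its paralogue ndufab1 at 53.5, 46.2, 45.8 and 107. The gene ndufa4b, whose mammalian counterpart NDUFA4 is now counted as a complex IV subunit, was rare, with 3, 6, 18 and 11 UMIs. The flavoprotein subunit gene ndufv3 held 0, 1, 2 and 1 UMIs and was not tested.

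**Figure D3:**
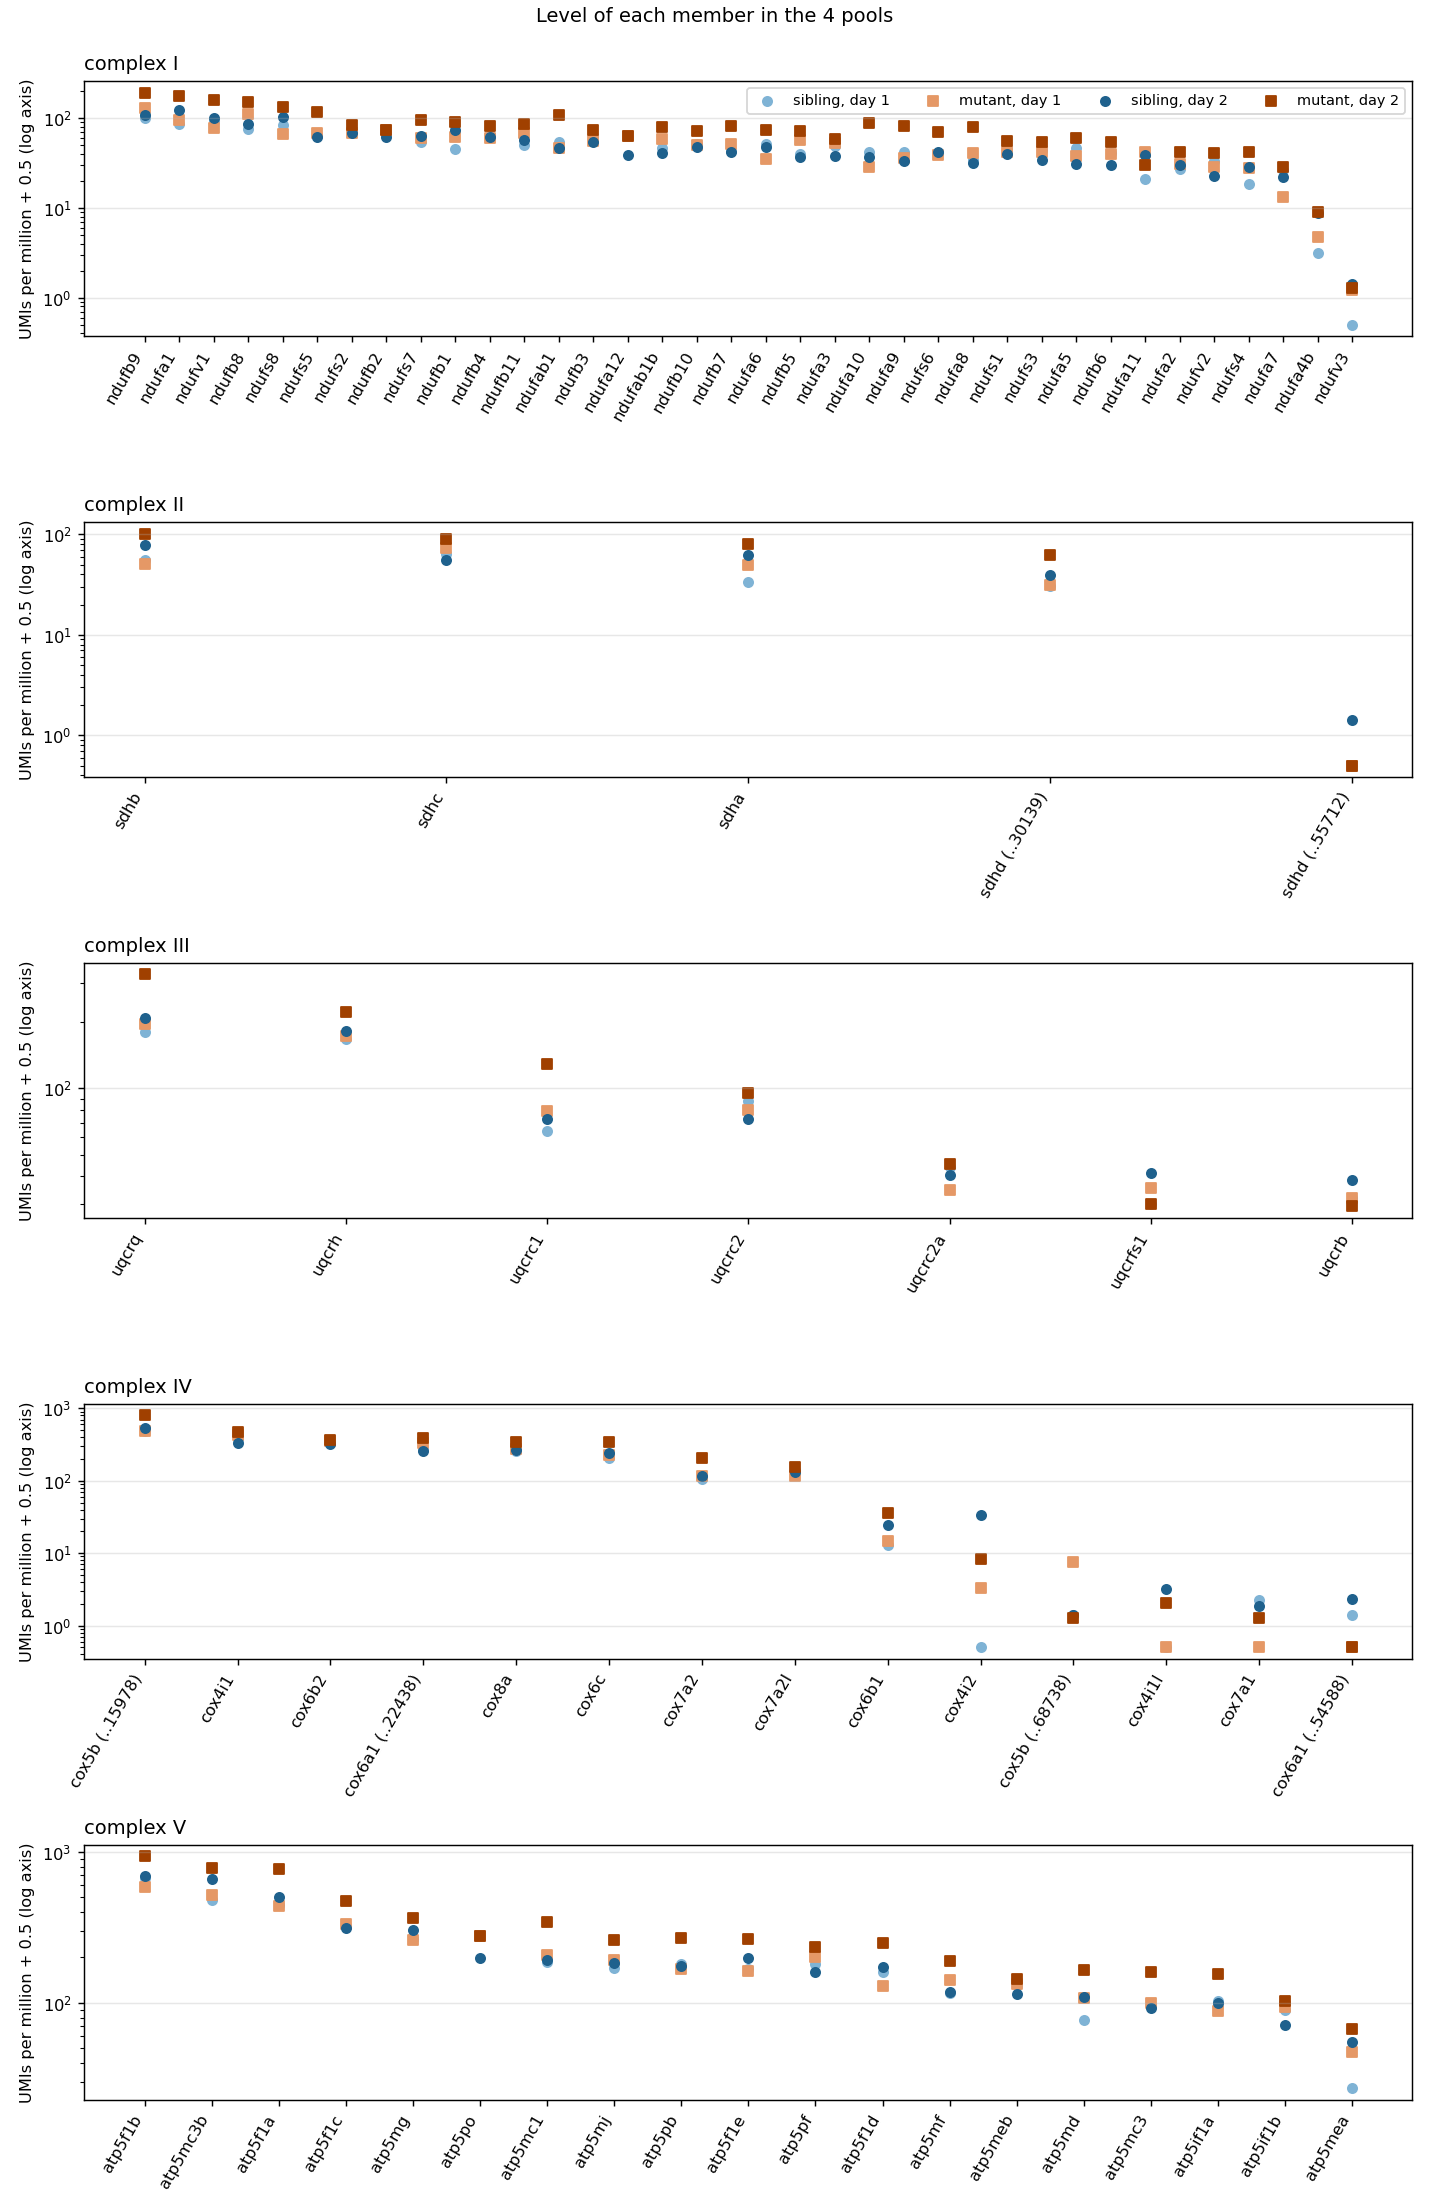
Points give the level of each of the 81 members in CPM plus 0.5 on a log axis, in 1 panel per complex, with circles for siblings and squares for mutants, pale for day 1 and dark for day 2; each point is 1 pool, and IDs of shared symbols are shortened. In most columns the dark square (mutants of day 2) is on top, as for ndufa8 (78.3 against 31.1 to 40.5 in the other pools), whereas in the column of cox4i2 the siblings of day 2 are highest (33.4).

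Of complex II, the 4 genes tested covered each subunit: the flavoprotein sdha, the iron-sulfur protein sdhb and the membrane anchors sdhc and sdhd. The highest was sdhb, at 55.3 and 49.8 CPM in siblings and mutants of day 1 and at 78.2 and 101.5 in those of day 2. It was higher in both pools of day 2, with a log2 fold between days of 0.73 ± 0.30 (edgeR adjusted p = 0.465). The same order of days was seen for sdha, at 33.0, 49.1, 62.2 and 79.8, with a log2 fold of 0.75 ± 0.33 (edgeR adjusted p = 0.493). It held in 3 of the 4 genes, beside 19.2% of all genes. The exception was sdhc, at 63.3, 72.5, 54.9 and 89.9, where both mutant pools lay above both sibling pools with a log2 fold of 0.30 ± 0.35 by genotype (edgeR adjusted p = 1.0). Of the IDs that share the symbol sdhd, ENSDARG00000030139 held 34, 43, 85 and 80 UMIs and ENSDARG00000055712 held 2, both in siblings of day 2.

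Complex III was led by small subunits. The 3 highest genes made up 72.5% of its level. The ubiquinone-binding subunit uqcrq stood at 180.2 and 196.2 CPM in siblings and mutants of day 1 and at 208.7 and 327.9 in those of day 2. Its log2 fold was 0.25 ± 0.35 by genotype and 0.46 ± 0.28 by sort day (edgeR adjusted p = 1.0 and 0.619). The hinge protein gene uqcrh, whose product contacts cytochrome c1, stood at 166.8, 172.8, 182.1 and 221.7, and the core protein gene uqcrc1 at 63.3, 78.2, 72.3 and 127.9. For uqcrc1 the log2 fold was 0.42 ± 0.38 by genotype and 0.44 ± 0.32 by sort day (edgeR adjusted p = 1.0 and 0.689).

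Complex III also held members with a lower level in mutants than in siblings of day 2. The Rieske iron-sulfur protein gene uqcrfs1 stood at 29.4, 34.8, 40.7 and 29.5 CPM, and uqcrb, a small subunit at the quinone site, at 31.2, 31.3, 38.0 and 28.7. On day 2 their ratios of mutant over sibling were -0.47 (-1.06 to 0.10) and -0.41 (-1.01 to 0.17), intervals that include 0. With TMM scaling 4 of the 7 complex III members were higher in mutants on day 2 and 3 on day 1. The catalytic cytochrome c1 gene cyc1, which the symbol rule leaves out, stood at 91.0, 105, 82.4 and 137.

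Complex IV was led by cox5b (ENSDARG00000015978), a peripheral subunit, at 487.9 and 479.9 CPM in siblings and mutants of day 1 and 538.6 and 798.4 in those of day 2. It was followed by cox4i1, the common isoform of the regulatory subunit COX4, at 379.1, 422.3, 327.6 and 475.2, and by cox6b2, named after the testis isoform of mammals, at 353.2, 357.6, 322.6 and 369.7. For cox6b2 all 4 pools were close together. Without scaling, both mutant pools lay above both sibling pools for cox7a2 and for cox6a1 (ENSDARG00000022438), small membrane subunits of the enzyme. This was also so for cox4i1, cox6b2 and cox8a. No share of all genes without scaling stands beside this order of pools, so it cannot be judged against a background. With TMM scaling it held for 2 of the 10 genes tested, cox6a1 and cox4i1, beside 13.7% of all genes. The gene cox7a2 stood at 105.3, 117.3, 114.4 and 206.2, with a log2 fold of 0.38 ± 0.37 (edgeR adjusted p = 1.0), most of it from the mutants of day 2. The gene cox6a1 stood at 272.1, 329.2, 258.5 and 385.2, with a log2 fold of 0.27 ± 0.29 (edgeR adjusted p = 1.0).

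Isoforms and paralogues of complex IV differed widely in level. The COX4 gene cox4i1 held 425 to 716 UMIs per pool, whereas cox4i1l held 0, 0, 6 and 2. Of the genes for subunit COX6A, ENSDARG00000022438 held 305 to 565 UMIs and ENSDARG00000054588 held 1, 0, 4 and 0. The gene cox7a1, the heart and skeletal muscle isoform in mammals, held 2, 0, 3 and 1 UMIs, and the second cox5b ID (ENSDARG00000068738) held 1, 10, 2 and 1. The genes cox8a, at 258.7, 276.6, 267.7 and 345.7 CPM, and cox7a2l, named for its likeness to cox7a2, at 139.1, 115.9, 131.3 and 155.8, were present throughout. Between cox6b1, at 12.5, 14.2, 24.2 and 34.9, and cox6b2 the latter was higher in every pool. The fold of cox6b1 between days was 1.09 ± 0.40 on the log2 scale (edgeR adjusted p = 0.436). Reads of near-identical paralogues may have been split by the counting, so these isoform levels are uncertain.

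The COX4 isoform gene cox4i2, known in mammals as an isoform of lung and of the response to low oxygen, was unlike the rest. On day 1 siblings held 0 and mutants 4 UMIs of it; on day 2 siblings held 73 and mutants 10. Siblings of day 2, at 33.4 CPM, were at least 12.5-fold higher than siblings of day 1 if these are set at a floor of 3 UMIs. Of the 73 UMIs, 43 came from 3 of the 7 wells that siblings of day 2 had in the cluster led by opn1sw, the gene of a cone opsin of the eye; these 7 wells held 9256 UMIs of opn1sw. In 2 of the 7 wells stood 255 UMIs of ckmt2 (ENSDARG00000069615), a mitochondrial creatine kinase. The other 192 sibling wells of day 2 held 30 UMIs of cox4i2 in 25 wells, beside 1150 UMIs of opn1sw in 186 wells and 27 of ckmt2. Neither mutant wells of day 2 nor wells of day 1 held this ckmt2 ID, and they held 16 UMIs of opn1sw in all; the other ckmt2 ID (ENSDARG00000039929) held 1, 27, 72 and 0 UMIs. The part of these wells in the fold of cox4i2 was not tested; without the cluster the gene no longer passed the filter on low counts. Its calls moved with the pools: it was not called by genotype (edgeR log2 fold -1.94 ± 1.29, adjusted p = 1.0) but was without siblings of day 1 (adjusted p = 0.00743), and by sort day (3.75 ± 1.09, adjusted p = 0.378) it was called without mutants of day 2 (adjusted p = 0.00359) and without the filter (adjusted p = 2.97e-05). These fits called 2.93%, 2.90% and 1.65% of the genes tested. With every well weighted equally the genotype fold turned to 0.11 ± 1.30, and without the 2% of wells with most UMIs it was -0.84 ± 1.23 (edgeR adjusted p = 1.0 for both). The opn1sw and ckmt2 genes were chosen after their values were seen.

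Complex V was the most abundant complex, and all of its 19 genes were tested. The catalytic beta subunit gene atp5f1b was the highest of all 81 members, at 671.7 and 588.7 CPM in siblings and mutants of day 1 and 696.4 and 934.8 in those of day 2. Mutants were lower on day 1, with a log2 ratio of -0.19 (-0.33 to -0.05), and higher on day 2, with 0.42 (0.31 to 0.53). The alpha subunit gene atp5f1a stood at 442.4, 435.8, 505.6 and 774.4. The gene atp5mc3b, for the ring subunit c that turns with the proton flow, stood at 480.8, 514.8, 660.3 and 777.5. In this gene the pools of day 2 were both above those of day 1.

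Subunit c, which is the same mature protein from several genes in mammals, came mainly from atp5mc3b here. Its paralogue atp5mc1 stood at 187.3, 208.3, 192.2 and 344.2 CPM, with a log2 fold by genotype of 0.37 ± 0.34 (edgeR adjusted p = 1.0). Both mutant pools lay above both sibling pools without scaling, but not with TMM scaling, where mutants of day 1 stood at 204.6 and siblings of day 2 at 206.2. The small membrane subunit gene atp5md stood at 76.7, 108.1, 108.4 and 165.9, higher in mutants on each day and on day 2 in each genotype, with a log2 fold of 0.38 ± 0.38 by genotype and 0.52 ± 0.31 by day (edgeR adjusted p = 1.0 and 0.604). The membrane subunit gene atp5mea was lowest of the complex, at 26.8, 46.9, 54.5 and 66.7, and had a log2 fold between days of 0.68 ± 0.36 (edgeR adjusted p = 0.565). The genes of the inhibitor that blocks ATP hydrolysis when the gradient collapses, atp5if1a at 102.6, 87.4, 99.3 and 155.8 and atp5if1b at 89.2, 93.8, 71.4 and 103.1, were also highest in mutants of day 2. With TMM scaling 19 of 19 complex V members were higher in mutants on day 2 and 7 on day 1, and 17 had their highest level in mutants of day 2.

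The genes of the mitochondrial genome did not follow the nuclear members to the same degree. Its 13 protein-coding genes took 4.83% and 5.07% of the UMIs in siblings and mutants of day 1 and 4.98% and 5.27% in those of day 2. Mutant over sibling, the log2 ratios of the days were 0.07 and 0.08, and -0.01 and -0.15 with TMM scaling. For each nuclear UMI there were 5.41, 5.51 and 5.32 mitochondrial ones in siblings and mutants of day 1 and siblings of day 2, and 3.94 (3.87 to 4.01, counting error) in mutants of day 2. Of the 13 genes, 0 were called by genotype or sort day in edgeR's test, where 0.0% and 0.11% of all genes were called.

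Other gene lists were set beside the members, with 0 genes called in any of them by either contrast (edgeR, adjusted p under 0.05). Of all genes tested, 0.0% were called by genotype and 0.11% by sort day. The lists are grouped here by their ratio on day 2, not by place in the cell, and the antioxidant list is not confined to mitochondria. On day 2 the summed level of assembly factors was higher in mutants by a log2 ratio of 0.55 (0.40 to 0.70; 18 of 21 genes tested higher with TMM scaling), that of mitochondrial ribosomal proteins by 0.80 (0.70 to 0.90; 48 of 54), of import components by 0.41 (0.28 to 0.54; 12 of 15), of the tricarboxylic acid cycle by 0.35 (0.27 to 0.43; 11 of 17) and of antioxidant enzymes by 0.58 (0.52 to 0.64; 11 of 14). With TMM scaling these ratios were 0.31, 0.56, 0.18, 0.12 and 0.34, beside 0.28 for the members. On day 1 the same lists had unscaled ratios of 0.00, -0.36, -0.07, -0.02 and 0.08, so only the mitochondrial ribosome, at 941.9 and 732.3 CPM in siblings and mutants of day 1 and 720.2 and 1251 in those of day 2, had a negative ratio whose interval excluded 0 (-0.49 to -0.24).

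The remaining lists, several of which also concern mitochondria, had smaller or negative ratios on day 2. Glycolysis genes summed to 3341, 3572, 4153 and 4267 CPM, a log2 ratio of 0.04 on day 2 (-0.01 to 0.09; 9 of 16 genes tested higher with TMM scaling). Electron carriers and coenzyme Q genes had a ratio of -0.08 (-0.17 to 0.01), although 5 of the 8 tested were higher in mutants with TMM scaling. Most of that sum came from the somatic cytochrome c gene cycsb, at 696, 681, 855 and 641. ATP and ADP exchange genes had a ratio of -0.06 (-0.14 to 0.02), with 1 of 8 higher with TMM scaling and 3 without it. In siblings of day 2 their 3613 UMIs included 282 of ckmt2 (ENSDARG00000069615), 255 of them from 2 wells of the opn1sw cluster. The part of these wells in the ratio was not tested. The few regulators of mitochondrial biogenesis had a ratio of 0.26 (0.03 to 0.49), with 3 of 5 higher with TMM scaling. Cytosolic ribosomal proteins, which fill 12.4 to 15.9% of the UMIs, were lower in mutants on both days, with ratios of -0.32 and -0.13 (69 of 73 lower on both days with TMM scaling, 0 called). With TMM scaling the day 2 ratios of these 5 lists were -0.19, -0.31, -0.29, 0.03 and -0.36.

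In single wells, too, the mutants of day 2 stood highest, with wide overlap, but on day 1 the median was lower in mutants, the reverse of the summed levels. The median well gave 0.844% and 0.778% of its UMIs to the members in siblings and mutants of day 1, and 0.799% and 1.03% in those of day 2. Between the quartiles, wells lay at 0.669 to 0.967% in siblings and at 0.807 to 1.54% in mutants of day 2, ranges that overlap. The share of mitochondrial genome transcripts had medians of 4.92 to 5.20% in the 4 pools. Within depth classes the log2 ratio of day 2 was 0.40 for wells of 1000 to 4000 UMIs, 0.33 for 4000 to 10000 and 0.56 for deeper wells, and that of day 1 was -0.06, -0.02 and 0.09.

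**Figure D4:**
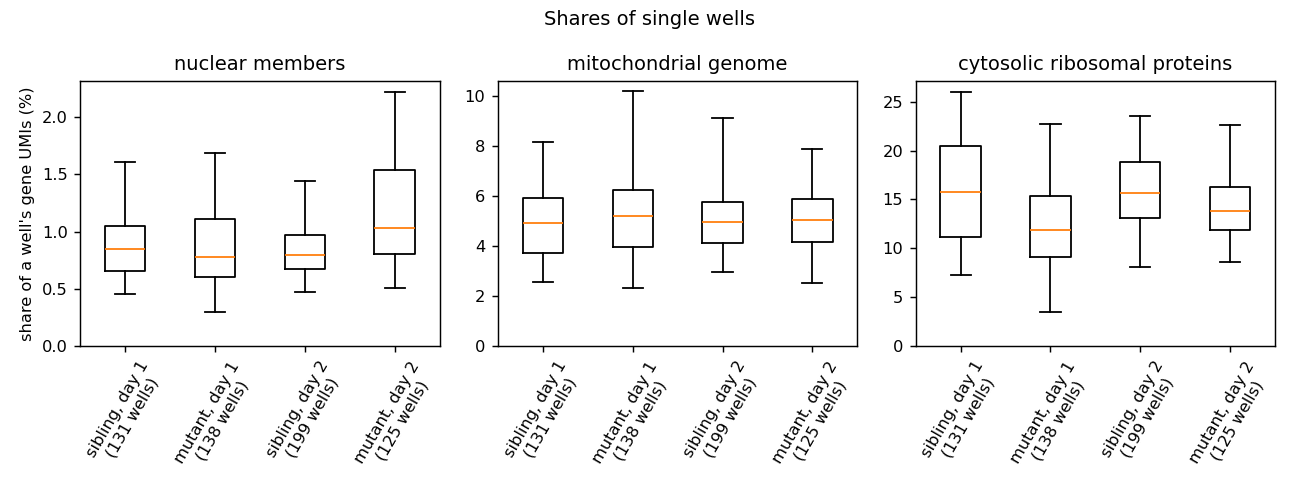
Boxes give the share of a well's gene UMIs (per cent, linear axis from 0) taken by the 81 nuclear members, by the mitochondrial genome and by cytosolic ribosomal proteins, with the median as a line, the quartiles as the box and the 5th and 95th percentiles as whiskers over the wells of each pool. In the first panel the median of the mutants of day 2 (1.03%) stands above those of the other pools (0.778 to 0.844%).

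Across wells the shares of complexes I, IV and V varied together. Among wells of 4000 or more UMIs, Spearman's rho between the shares of complexes I and V was 0.64 over 96 sibling and 0.71 over 102 mutant wells of day 1, and 0.62 over 181 sibling and 0.77 over 102 mutant wells of day 2. Between complexes IV and V it was 0.58, 0.75, 0.50 and 0.79 in the same order, and between complexes III and V 0.43, 0.43, 0.21 and 0.59. Complex II was not included. Between the nuclear members and the mitochondrial genome it was 0.17, 0.18, 0.03 and 0.29. These values describe wells that share a plate and a depth range; between the members' share and the depth of a well rho was -0.17, -0.13, 0.09 and 0.38.

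The wells were clustered without the members' counts, after standardizing within plates, into 10 clusters. Each cluster had 9 to 12 macrophage markers detected, but only the mfap4 cluster had 1 among its 10 leading genes, so the clusters are called by their leading genes. The one led by apoeb and apoc1 was microglia-like by the listed markers. Members were lower in both sibling pools in the clusters led by slc35e4 (7470 CPM on day 1 and 7346 on day 2), by apoeb (7310 and 7235) and by mfap4 (7420 and 7819). They were higher in both in the clusters led by pdk2 and cxcr4 (9901 and 11550), by anxa2, ctsk and lgals9l1 (11520 and 10780) and by sftpba and eomes (10580 and 13080). The lowest level was in the shallow cluster led by ranbp10, with 3539 and 5318 and a median depth of 2904 UMIs. Levels within a pool thus differed between clusters by more than the summed levels differed between siblings and mutants of day 2.

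The pools were made of different clusters. Of the 199 sibling wells of day 2, 78 belonged to the mfap4 cluster and 20 to the slc35e4 cluster, of the 125 mutant wells 2 and 3. Conversely, 49 mutant wells of day 2 and 4 sibling wells fell into the cluster led by anxa2, ctsk and si:dkey-6n3.3, where the mutants of day 2 stood at 11310. Standardizing within plates removes mean differences between the plates of day 2, so these sizes are a description. For the same reason, sibling and mutant wells of day 2 in the same cluster need not be the same kind of cell. The ratios within clusters are therefore a description too. Within clusters that had at least 5 wells of each genotype on day 2, members were higher in mutants in 5 of 6. The log2 ratio was 0.61 (0.55 to 0.68) in the pdk2 and cxcr4 cluster, 0.85 (0.68 to 1.03) in the anxa2 and lgals9l1 cluster, 0.90 (0.81 to 0.99) in the apoeb cluster, 0.12 (0.02 to 0.21) in the eomes cluster and 1.03 (0.78 to 1.29) in the ranbp10 cluster. The exception was the opn1sw cluster, at 13360 in 7 sibling and 6948 in 15 mutant wells (-0.94, -1.12 to -0.77). Its wells were unlike: the 7 sibling wells held 284430 UMIs, 9256 of them of opn1sw. The 15 mutant wells held 40298 UMIs, with 0 of opn1sw. All cluster ratios are without TMM scaling, and the ratio of all genes within a cluster was not computed. Over the whole pools of day 2 the median of all genes tested was 0.23 without scaling, above the ratio of the eomes cluster. On day 1, within the shared plate, mutants were higher in 4 of 8 clusters, with ratios from -0.30 to 0.32. Equal weights for the clusters with at least 5 wells of each genotype gave log2 ratios of -0.02 (8 clusters, day 1) and 0.43 (6 clusters, day 2). On day 2 this left out the mfap4 and slc35e4 clusters and the one led by anxa2, ctsk and si:dkey-6n3.3. The value of 0.43 therefore does not cover the whole pools.

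**Figure D5:**
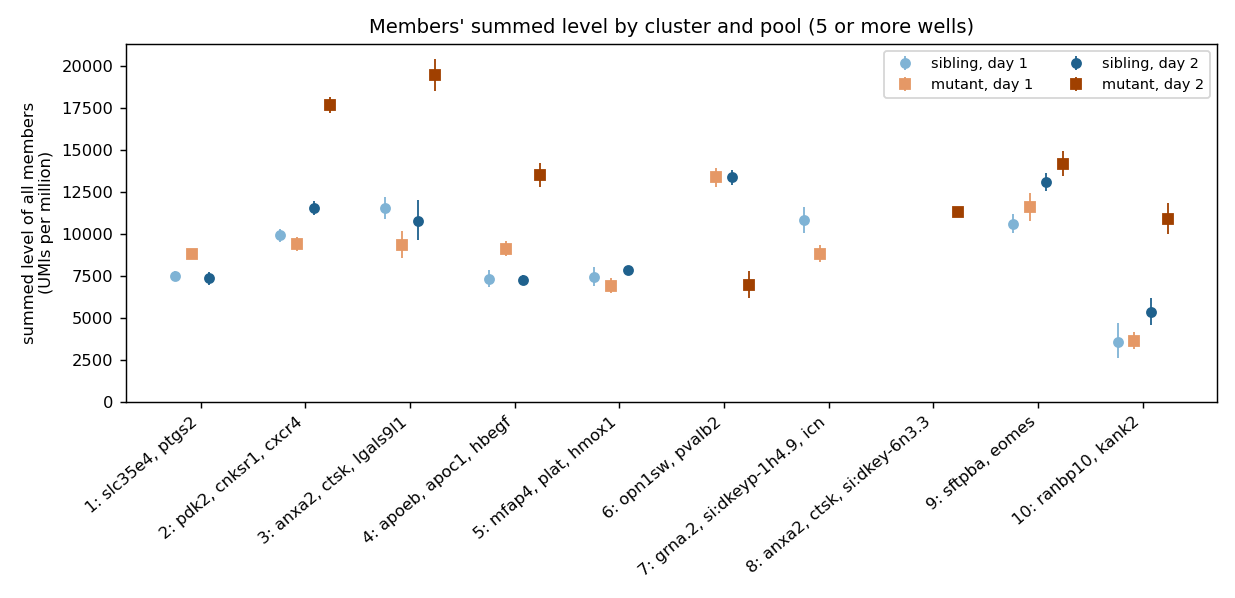
Points give the summed level of the 81 members in CPM (linear axis from 0) in each cluster and pool with 5 or more wells, clusters being named by up to 3 leading genes with symbols; bars are exact 95% Poisson intervals and cover counting error only. In the clusters led by pdk2, anxa2 with lgals9l1, apoeb and ranbp10 the dark square (mutants of day 2) is highest, as in the apoeb cluster (13500 against 7235 in siblings of that day); in the opn1sw cluster it is lowest (6948).

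Complex I had the direction of all members in each of these clusters on day 2. Its ratio was larger than theirs in the clusters led by pdk2, by anxa2 with lgals9l1, by apoeb and by ranbp10. On day 2 its log2 ratio was 0.76 (0.62 to 0.91) in the pdk2 and cxcr4 cluster, 1.57 (1.13 to 2.03) in the anxa2 and lgals9l1 cluster, 1.33 (1.11 to 1.54) in the apoeb cluster and 1.41 (0.81 to 2.07) in the ranbp10 cluster. In the eomes cluster it was 0.11 (-0.10 to 0.32) and in the opn1sw cluster -0.95 (-1.34 to -0.59). The complexes did not all move alike. Complex III stood at 0.01 (-0.58 to 0.63) in the anxa2 and lgals9l1 cluster and at -0.20 (-0.61 to 0.19) in the eomes cluster. In the remaining clusters it had the direction of all members. On day 1 the interval of complex I included 0 in 7 of the 8 clusters; the exception was the eomes cluster, at 0.30 (0.02 to 0.58).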

How the data were processed

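Single macrophages were counted by CEL-Seq2, a 3′ method with unique molecular identifiers, per the labels' protocols. The authors deposited expected counts, that is UMIs of each gene in each well after a correction for UMI collisions; undoing that correction for 4096 possible UMIs turned 100% of the values above 0 into whole numbers within 0.005. The submitters' processing notes name BWA and the build Zv9; of their versions, of counting and of annotation nothing is given in the sources used here. Depth had not been scaled. The 88 spike-in IDs were kept apart. Symbols, taken from a gene name table, were written in lower case; IDs that share a symbol are printed with their ID, and some symbols follow human names.

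Columns carry well numbers, the same 384 on each plate. They were read row by row from A1, since the 8 corner wells usually left empty held 0.0591, 0.799 and 0.0890 of the plate median on the shared, mutant and sibling plates, under 0.1 on 2 of 3 plates as the condition asked. The genotypes of day 1 rest on that reading.

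UMIs of wells with at least 1000 were summed into 4 pools and rounded. Genes were tested with edgeR 4.0.16 (R 4.3.3; quasi-likelihood test, TMM, its filter on low counts, Benjamini-Hochberg at 0.05) on genotype or on sort day alone. The labels give the sort day, which pairs the pools; deviations of same-day pools correlated with r = 0.124 over 8177 genes. DESeq2 1.42.0, the day or genotype as a block, other well sets, no filter, no scaling and each pool left out in turn were alternatives. Ratios of single pools carry exact binomial 95% intervals, which cover counting error only. Wells were clustered with scanpy 1.11.5 (2000 variable genes without the members, 20 components, 15 neighbours, Leiden resolution 1); no doublet caller was run. The test was also tried on simulated data.

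Genes were named by a rule: per complex the 3 highest mean levels, the 2 largest folds by genotype and by sort day among members with at least 40 UMIs and 1 direction in both strata (1 for complex II), and a list of paralogues. The gene cox4i2 had the largest fold by sort day in complex IV. With 0 UMIs in siblings of day 1 it had no ratio in siblings, so it is named only as a paralogue. Others are named at the ends of ranges or as exceptions, chosen after their values were seen. The members, lists, clustering scheme and tests were chosen with earlier results of these data known.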

Additional observations from a re-analysis of the deposited data

Results flagged for a closer look

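The ATP synthase beta subunit gene atp5f1b had opposite directions on the sort days, with intervals of counting error that exclude 0 on both. Mutant over sibling, its log2 ratio was -0.19 (-0.33 to -0.05) on day 1, from 671.7 and 588.7 CPM, and 0.42 (0.31 to 0.53) on day 2, from 696.4 and 934.8. With 1 pool of each genotype a day, the difference between days was not tested.

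Wells under the minimum of 1000 UMIs, which entered no comparison, also held UMIs of the members, more than the 3 that a count of 0 allows. There were 171 in 61 sibling and 105 in 54 mutant wells of day 1, and 470 in 185 sibling and 662 in 259 mutant wells of day 2. This came to a CPM of 7957 (6809 to 9243), 7287 (5960 to 8821), 10100 (9209 to 11060) and 14630 (13530 to 15780), with the mutants of day 2 again highest. Whether these wells held a cell was not tested.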

How the results depend on the processing

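The count of 0 members called was the same under the replicate block (sort day for genotype, genotype for sort day: 0 and 0 members), DESeq2, no scaling and every other set of wells; the block changed no other call of a member. It became 1, cox4i2 in each case, for sort day without the filter on low counts; with each pool left out in turn it ranged from 0 to 1 for genotype and from 0 to 1 for sort day. The day 1 ratio of all members (0.05) was -0.03 without the 2% of wells with most UMIs, -0.03 with equal well weight, 0.00 in the clusters led by slc35e4, pdk2, mfap4 and ranbp10 (3 or more macrophage markers detected, no other class leading), -0.03 without the opn1sw cluster, -0.04 with TMM-scaled library sizes and -0.01 with libraries sized without cytosolic ribosomal proteins. The last 3 alternatives were chosen after seeing the data. The day 2 ratio (0.52) stayed above 0 under every alternative: 0.56, 0.49, 0.91, 0.63 and 0.28 in the same order, the last alternative leaving it within its interval. The ratio of 0.91 compared 130 sibling with 29 mutant wells of unlike cluster mix. Of these wells, 78 sibling and 2 mutant ones were of the mfap4 cluster, and 23 and 17 of the pdk2 cluster. The part of that mix in the ratio was not tested. Of the counts of directions, members higher in mutants on day 1 fell from 34 of 75 to 21 of 73 without the opn1sw cluster. That cluster was also led by the muscle genes pvalb2 and pvalb1. On day 1 its 4 sibling wells held 0 UMIs of opn1sw and its 6 mutant wells 1, among 154458 UMIs. The count was 23 of 74 without the 2% of wells with most UMIs, 27 of 74 with equal well weight and 25 of 73 in the slc35e4, pdk2, mfap4 and ranbp10 clusters. Members with both mutant pools above both sibling pools rose from 13 to 27 without scaling. No share of all genes under these alternatives stands beside any of these counts, so they cannot be judged against a background. For complex IV the day 1 ratio was -0.01 without the 2% of wells with most UMIs; with each pool left out in turn the genotype fold of uqcrq ranged from -0.09 to 0.55 and that of cox7a2 from 0.00 (just below 0) to 0.70, the lowest without mutants of day 2. Other genotype folds were also lowest without that pool: ndufa8 ranged from 0.22 to 1.07, uqcrc1 from 0.10 to 0.71, atp5mc1 from 0.04 to 0.66, atp5md from 0.11 to 0.69 and sdhc from 0.20 to 0.41. Folds by sort day ranged from 0.15 to 0.71 for uqcrc1, 0.27 to 0.66 for uqcrq, 0.16 to 0.75 for cox7a2 and 0.35 to 0.78 for atp5md, again lowest without mutants of day 2 (for atp5md also without siblings of day 1), and from 0.38 (without siblings of day 1) to 1.13 for atp5mea. The causes were not tested. Wells without any muscle or mesenchyme UMI left 0, 0, 1 and 5 wells, so that alternative was not run. Depth limits the rarest genes: 6 of the 81 members were too low to test.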
